A study of Mus musculus with 4 samples.

Results

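The array of this study carried 1 matched probe for the microRNA miR-574, under its human name, and 1 mismatch probe of the same name, out of 785 miRNA probes and 604 mismatch probes. Both were taken by name, and no other species' probe for miR-574 was present, so every value below comes from a single pair of probes. miR-574 was chosen by its measured values, as an miRNA with a high normalized signal in P815 and a lower one with imatinib on these same 4 arrays, so its levels and differences are given as a description and not as tests.

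Each of the 4 groups was 1 single-colour array of total RNA from mouse cells. P815, a mouse mast cell line whose KIT receptor carries the D814V change and which grows in medium without cytokines, was profiled with imatinib, a kinase inhibitor that acts on KIT, and without it. Bone-marrow-derived mast cells (BMMC), primary cells cultured with the KIT ligand SCF (stem cell factor) and with interleukin 3, were profiled with SCF and after starvation of SCF. Imatinib was given at 10 nM and SCF at 100 ng per cc, each for 24 h, and the age, strain and number of the marrow donors were not given in the labels. P815 stands for 1 line, and the arrays do not report on KIT activity, so KIT is called active or not active by treatment only. Whether imatinib at 10 nM inhibited the D814V form of KIT cannot be told from them. No group had a second array, so replicate error is unknown, no test was run, and "higher" and "lower" compare 2 arrays. In RNA from whole cultures, a change in the share of cells that express an miRNA and a change in its amount per cell cannot be told apart.

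MicroRNAs are cut from hairpin transcripts by Drosha and Dicer. Either arm of the hairpin can be loaded into an Argonaute protein, which is then guided to messenger RNAs mainly through the seed, bases 2 to 8 of the mature strand. The hairpin of miR-574 has a GU-rich 5′ arm and a C-rich 3′ arm. The mouse gene, Mir574, lies at chr5:64970318-64970395 on the plus strand (GRCm38.p6, RefSeq), within the bounds of the RefSeq entries for Fam114a1 and for Tlr6, which encodes a Toll-like receptor. Whether exon or intron covers it was not given in the gene table used here.

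The 2 arms are shown because the probe name does not say which of them was measured. The hairpin has both mature arms in capitals, and each mature sequence has its seed in capitals (RefSeq, GRCm38.p6).
Mir574 hairpin: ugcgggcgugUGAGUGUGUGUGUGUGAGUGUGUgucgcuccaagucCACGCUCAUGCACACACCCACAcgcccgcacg
mmu-miR-574-5p: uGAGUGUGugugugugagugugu
mmu-miR-574-3p: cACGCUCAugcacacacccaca
The 5′ arm is 91.3% G and U, with 6 UG dinucleotides in a row and 0 C. The 3′ arm is 18.2% G and U, with 11 C among its 22 bases. In early releases of the miRNA registry the plain name miR-574 stood for the 3′ arm, but the probe sequence was not given in the sources used here, so the arm is not settled.

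No other mouse miRNA in the RefSeq table shared either seed. Of 1677 other mature sequences, 0 had the seed ACGCUCA and 0 had GAGUGUG. Longer runs of shared bases were found for the 5′ arm only: 3 sequences held at least 10 bases of it in a row, against 0 for the 3′ arm, where the longest run was 9 bases. The sequences with the longest runs are shown, with the run in capitals, since a probe for the 5′ arm would meet these letters in other RNAs too.
mmu-miR-3082-5p: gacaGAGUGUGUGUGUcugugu
mmu-miR-1187: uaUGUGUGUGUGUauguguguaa
These shared 12 and 11 bases with the 5′ arm. Whether either RNA binds the miR-574 probe was not tested. The search did not cover the miRNAs named miR-297, miR-466, miR-467 and miR-669 on the array, described further on, as their mature sequences were not in the table used here.

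The miR-574 probe was bright on every array. Its intensity, in arbitrary linear units, was 4028.75 in P815 with imatinib, 6221.5 in P815 without imatinib, 5571.25 in BMMC with SCF and 7140.5 in BMMC without SCF. The order was therefore BMMC without SCF, P815 without imatinib, BMMC with SCF and P815 with imatinib, and no replicate shows which neighbours in it differ beyond array error. As scanned, P815 without imatinib lay between the BMMC arrays and P815 with imatinib lay below both, so the raw signal does not bear out a higher level in P815. What set the P815 arrays apart was that most other probes were dimmer there.

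The mismatch probe of miR-574, which differs from the matched probe by 2 bases going by its name, was near background. It read 283.5 in P815 with imatinib, 234.0 in P815 without imatinib, 357.0 in BMMC with SCF and 401.0 in BMMC without SCF. It exceeded 1.5 times the median mismatch probe, the limit for an entry in the authors' processed table, on 1 array, P815 with imatinib, at 1.575 times. The matched probe was 14.2, 26.6, 15.6 and 17.8 times as bright as its mismatch probe in the same order of arrays. Over the listed mouse miRNAs with a mismatch probe (114 to 186 per array) the median of this ratio lay between 1.92 and 3.25. The probe with changed bases was thus far dimmer than the matched probe on all 4 arrays. Since the mismatch readings lay close to each array's background, the ratios are not ranked between arrays.

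**Figure D1:**
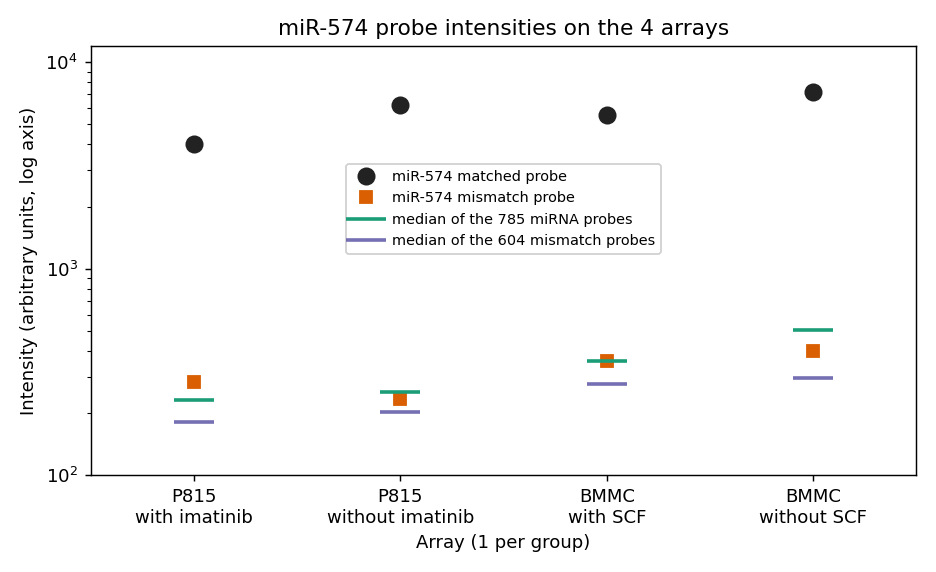
Intensity (log axis, arbitrary units) of the miR-574 matched probe (circles) and mismatch probe (squares) on the 4 arrays, with the median miRNA probe and median mismatch probe of each array as bars. The matched probe lies between 4028.75 and 7140.5 on all 4 arrays, while the median miRNA probe is 232.2 and 251.8 on the P815 arrays and 356.8 and 504.0 on the BMMC arrays.

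The arrays differed in overall brightness, and the size of the miR-574 difference between cell types turns on this. The number of miRNA probes above an intensity of 5000 was 8 in P815 with imatinib and 5 in P815 without imatinib, against 34 in BMMC with SCF and 43 in BMMC without SCF. The 99th percentile of the miRNA probes was 4619 and 3807 on the P815 arrays and 14035 and 18199 on the BMMC arrays, in the same order. With an intensity of the same order throughout, the miR-574 probe had 14 brighter miRNA probes in P815 with imatinib, 2 in P815 without imatinib, 30 in BMMC with SCF and 34 in BMMC without SCF. Brightness also depends on the probe, so this order is a place on the array and not a rank of miRNA amounts.

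**Figure D2:**
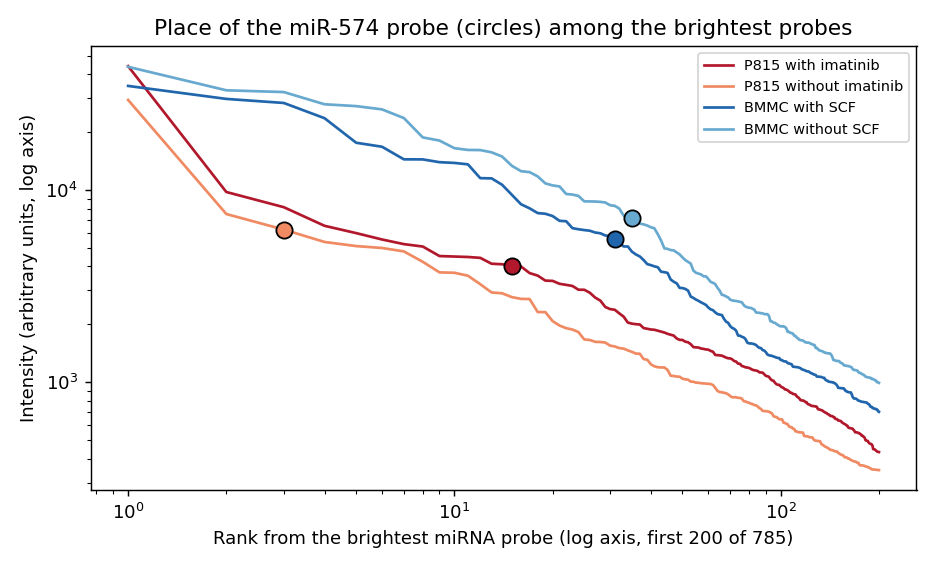
Intensity (log axis, arbitrary units) of the 200 brightest of 785 miRNA probes on each array against their rank (log axis), with the miR-574 probe as a circle. The circles lie at similar heights but at rank 15 in P815 with imatinib and rank 3 in P815 without imatinib, against rank 31 in BMMC with SCF and rank 35 in BMMC without SCF.

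Quantile normalization, which gives every array the same distribution of intensities, turned this shift in place into a shift in value. The normalized log2 value of miR-574 was 12.56 in P815 with imatinib, 13.83 in P815 without imatinib, 11.77 in BMMC with SCF and 11.58 in BMMC without SCF. On this scale both P815 arrays lay above both BMMC arrays. The normalized mismatch probe lay at 8.22, 7.68, 7.87 and 7.46 in the same order. Its log2 difference had the opposite sign to that of the matched probe for imatinib (0.55, matched -1.27). The same held for the cell types with KIT active (-0.19, matched 2.06). The signs were alike for the cell types with KIT not active (0.76, matched 0.98) and for SCF (0.41, matched 0.20).

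P815 was first set against BMMC with KIT active in both. In P815 without imatinib miR-574 was 4.16-fold higher than it was in BMMC given SCF, a normalized log2 difference of 2.06. Among 196 mouse miRNAs listed by the authors on at least 1 of these arrays it had the 5th highest difference. Of these, 38 (19.4%) were at least 2-fold higher, the median lay at -0.08, and probes named for virus and worm miRNAs, 40 of them listed, reached 1.84. The difference was 2.07 with cyclic loess, 1.37 with scaling to the 75th percentile and 0.77 with median centring, which is below 2-fold. It was 0.17 with no scaling between arrays, and the median over listed miRNAs was then -1.30. Calls of 2-fold over all listed miRNAs split 38 higher to 59 lower, but 23 to 56 with cyclic loess, 8 to 71 with scaling to glycine tRNA probes, 7 to 77 with median centring, 6 to 84 with scaling to virus and worm probes and 2 to 113 unscaled. Relative to the median listed miRNA, miR-574 was higher in P815 by 1.47 to 2.32 under the scalings named here, and the absolute size is set by the choice of scaling. The main processing gave 2.14 and cyclic loess 2.32. All others named here shift each array by a constant or not at all, so they give the same 1.47 by construction and do not count separately.

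With KIT called not active by treatment in both cell types, the excess was smaller. miR-574 was 1.97-fold higher in P815 with imatinib than in BMMC without SCF, a normalized log2 difference of 0.98. A difference of 2-fold or more upward was seen for 19 of 259 listed miRNAs (7.34%), and 20 had a higher difference than miR-574. Of 60 listed virus and worm probes, 6 (10.0%) were at least 2-fold higher and 2 (3.33%) lower. The highest of them, at 1.38, lay above miR-574. The miR-574 difference was 0.40 with median centring and 0.43 with the 75th percentile. It turned to -0.83 with no scaling between arrays, so its direction depended on the scaling. The split of 2-fold calls was 19 higher to 39 lower, against 12 to 63 with glycine tRNA scaling and 1 to 171 unscaled. The mismatch probe itself was higher in P815 with imatinib by 0.76 on the normalized scale, against a median of 0.42 over 190 listed miRNAs with a mismatch probe.

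**Figure D3:**
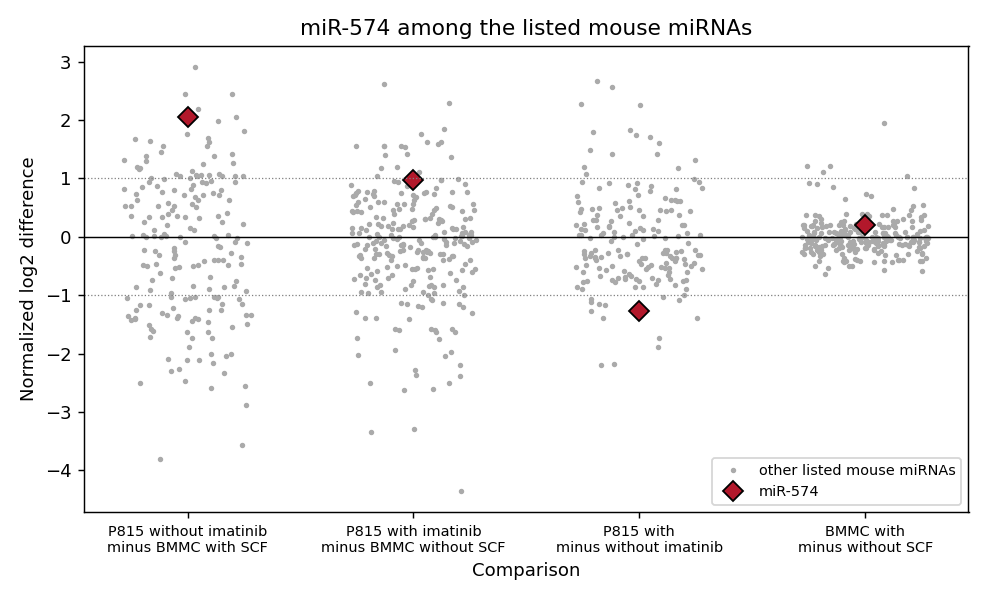
Normalized log2 differences of the mouse miRNAs listed on at least 1 of the 2 arrays of each comparison (grey points, spread sideways at random) with miR-574 as a diamond, and dotted lines at 2-fold. miR-574 lies at 2.06, 0.98, -1.27 and 0.20 from left to right.

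With imatinib, miR-574 in P815 was lower. Its intensity was 4028.75 with imatinib and 6221.5 without, a ratio of 0.648. The median miRNA probe read 232.2 with imatinib and 251.8 without, and the median of the log2 differences of all miRNA probes, unscaled and after background correction, was -0.01. The normalized log2 difference was -1.27, or 2.42-fold lower, the 7th lowest of 185 listed miRNAs, of which 14 (7.57%) were at least 2-fold lower and the median lay at -0.22. Of 41 listed virus and worm probes 0 (0.0%) were 2-fold lower and 5 (12.2%) were 2-fold higher, with a range of -0.68 to 2.16. Single probes of this kind thus moved further than miR-574, though upward. The mismatch probe went the other way, higher with imatinib by 0.28 in log2 intensity and by 0.55 after normalization.

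The direction with imatinib held in all 12 alternatives, which reuse the same arrays, while the size ranged between -1.68 with cyclic loess and -0.61 with median centring. In the authors' processed values miR-574 was 2416 with imatinib and 6019 without, a log2 difference of -1.32. Under median centring, without scaling and with scaling to virus and worm probes, the difference fell short of 2-fold (-0.61 to -0.63), and the median listed miRNA then lay at 0.35 to 0.37. Calls of 2-fold with imatinib split 16 higher to 14 lower, but 38 to 3 with median centring and with virus and worm scaling, 37 to 3 unscaled and 14 to 23 in the authors' values. P815 without imatinib enters both this comparison and that with BMMC with SCF, so a high reading on that 1 array would raise miR-574 in one and lower it in the other, and these are not independent findings.

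miR-574 differed little between BMMC with and without SCF. Its intensity was 5571.25 with SCF and 7140.5 without, a ratio of 0.780, on arrays whose median miRNA probe read 356.8 with SCF and 504.0 without. The median of the log2 differences of all miRNA probes, unscaled and after background correction, was -0.63. The normalized log2 difference was 0.20, within the SD of 0.31 over 60 listed virus and worm probes, and only 5 of 256 listed miRNAs (1.95%) reached 2-fold upward. The difference was -0.36 with no scaling between arrays and -0.63 in the authors' processed values, whose median over listed miRNAs was -0.90. Calls of 2-fold with SCF split 5 higher to 0 lower, but 1 to 15 unscaled and 1 to 105 in the authors' values. No direction with SCF is therefore given.

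The study asked which miRNAs follow KIT in both systems. As KIT active minus KIT not active, miR-574 differed by 1.27 in P815 and by 0.20 in BMMC, a gap of 1.08 on the log2 scale. Both values were positive in the main processing. The BMMC value was negative with no scaling between arrays (0.63 in P815 and -0.36 in BMMC) and in the authors' processed values (1.32 and -0.63). The gap stayed above 0 in all 11 alternatives run for it, between 0.35 and 1.95, and with 1 array per group it was not tested.

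**Figure D4:**
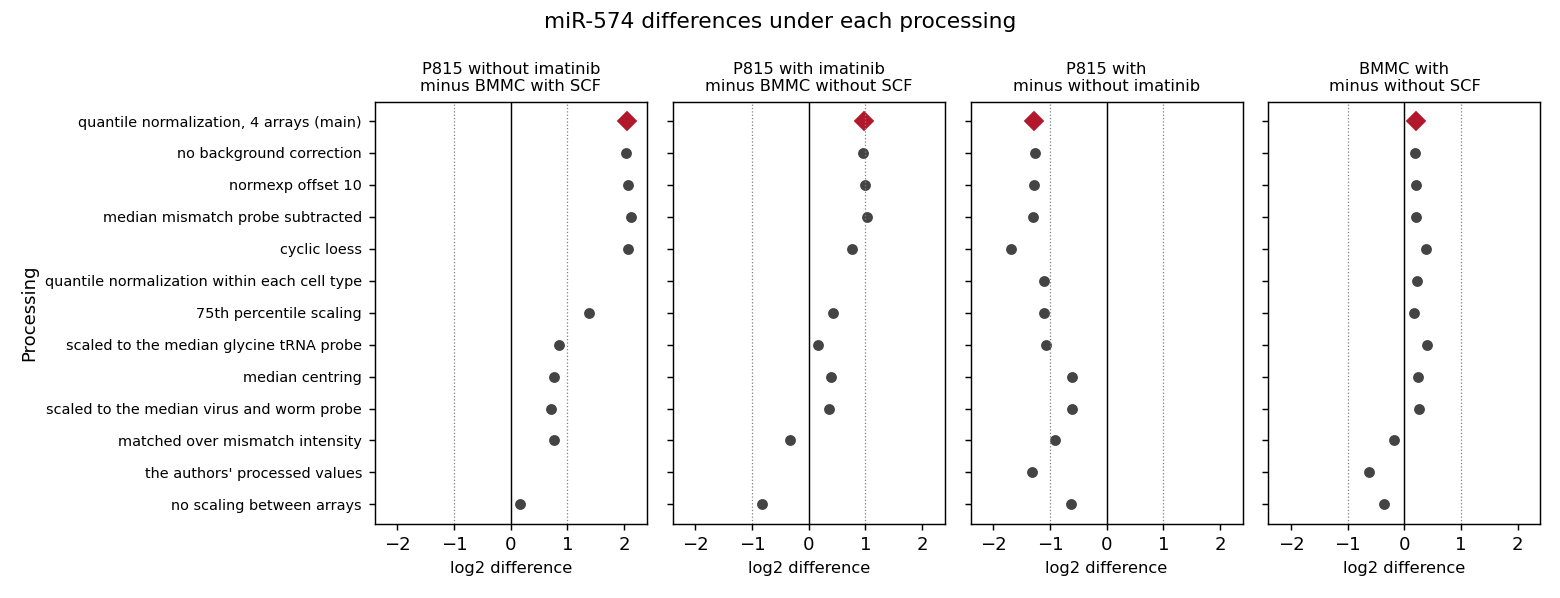
Log2 difference of miR-574 (horizontal axis) in the 4 comparisons under each processing (rows), with the main processing as a diamond and dotted lines at 2-fold. Values with imatinib lie between -1.68 and -0.61, all below 0, and those of P815 without imatinib minus BMMC with SCF lie between 0.17 and 2.11, all above 0, while both remaining panels hold values on either side of 0.

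Other miRNAs were then ranked by how closely their 4 normalized log2 values, after subtraction of their own mean, followed those of miR-574 among 130 mouse miRNAs listed on all 4 arrays. The nearest was miR-365, with a root mean square gap of 0.21 over the 4 arrays, followed by miR-92 (0.23), miR-467b (0.31), miR-467a (0.31), miR-431 (0.32), miR-7 (0.33), miR-669c (0.36) and miR-188 (0.37). The miR-365 probe read 691.25 in P815 with imatinib, 758.75 in P815 without imatinib, 509.75 in BMMC with SCF and 790.25 in BMMC without SCF. As for miR-574, its P815 and BMMC readings overlapped as scanned, and after normalization it was higher in P815, by 1.81 on the log2 scale with KIT active. All 8 were picked for following the normalized values of miR-574, so this excess follows from the choice and is not a separate result. With median centring or without scaling, 3 of these 8 were still among the nearest 8 (miR-467a, miR-467b and miR-669c), and with cyclic loess 5.

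The mature strands of the 2 nearest are shown with their seeds in capitals, since their letters have no seed in common with either arm of miR-574 (RefSeq, GRCm38.p6).
mmu-miR-365-3p: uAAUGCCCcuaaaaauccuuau
mmu-miR-92a-3p: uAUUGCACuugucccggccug
miR-365 is encoded next to miR-193 genes, and miR-92a comes from the miR-17-92 cluster and its paralogue. The probe names miR-365 and miR-92 give no arm, and miR-92 gives no letter, so the strands shown are those usually meant by the names.

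**Figure D5:**
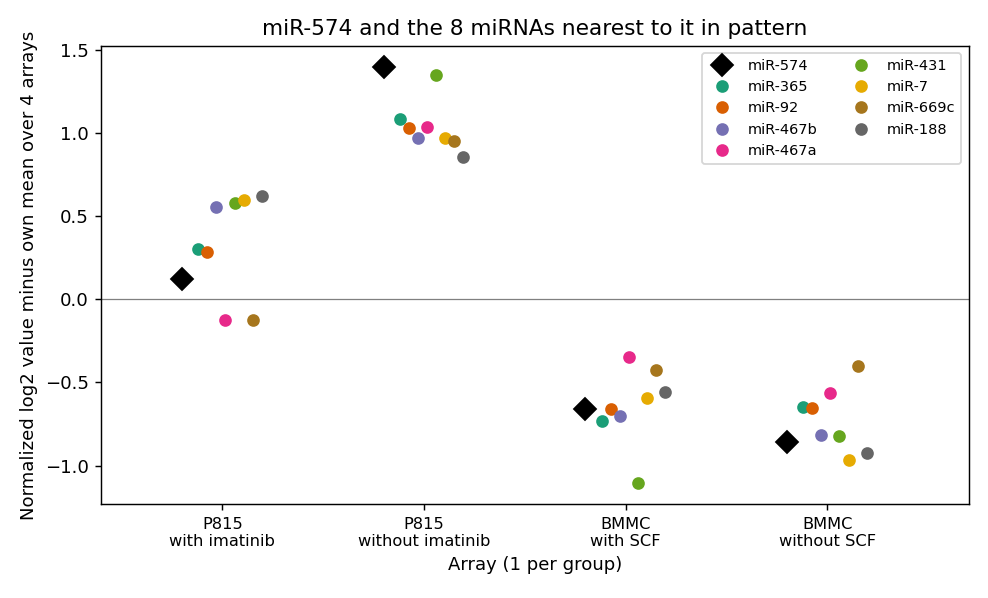
Normalized log2 values of miR-574 (diamonds) and the 8 nearest miRNAs (circles, offset sideways) on the 4 arrays, each minus its own mean. All 9 lie above 0 in P815 without imatinib and below 0 on both BMMC arrays, while in P815 with imatinib miR-467a and miR-669c lie below 0. The 8 were picked for this likeness to miR-574.

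miR-467a, miR-467b and miR-669c carry the names of a large family, many of whose genes lie in an intron of Sfmbt2 on mouse chromosome 2. Its strands include some with UG repeats and some with CA repeats. Among strands with such names in the sequence search, miR-466k shared 9 bases in a row with the 5′ arm of miR-574. miR-466q shared 9 with the 3′ arm, and neither strand is on the array. Of 9 miRNAs on the array with such names (miR-297, miR-466, miR-467 and miR-669), 8 were listed, each on all 4 arrays. With KIT active, 4 of the 8 were at least 2-fold higher in P815 than in BMMC (miR-467b at 1.67, miR-467a at 1.38 and miR-669c at 1.38 on the log2 scale, and miR-297 just past the limit), beside 38 of 196 listed miRNAs (19.4%), with a list median of 0.94 against -0.08. The first 3 of these had already been picked as near to miR-574, so their differences are not a separate result. With KIT not active 1 of 8 was 2-fold higher, miR-467b at 1.37, which is near the share of 7.34% over all listed miRNAs, and the list median was 0.43 against -0.08.

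With imatinib 3 of the 8 were at least 2-fold lower, miR-466 at -1.73, miR-467a at -1.17 and miR-669c at -1.08, beside 14 of 185 listed miRNAs (7.57%), with a list median of -0.64 against -0.22. Of these, miR-467a and miR-669c were among the miRNAs picked for following miR-574. The miR-467a probe read 3165.75 in P815 with imatinib, 4791.75 in P815 without imatinib, 5799.5 in BMMC with SCF and 7284.25 in BMMC without SCF. With SCF, 0 of 8 were 2-fold apart. With median centring 0 of 8 were 2-fold apart in any of the 4 comparisons, and the list medians were 0.32, 0.34, -0.20 and 0.09 in the order given here. With no scaling between arrays the list medians were -0.28, -0.88, -0.22 and -0.51, and 4 of 8 were at least 2-fold lower in P815 with KIT not active, so the direction of the list between cell types depended on the scaling. Hybridization may not separate members of this family, so they are not independent of each other.

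The arrays were checked against miRNA markers of cell types. miR-221, miR-222, miR-24 and miR-26a, abundant in mast cells, were listed on all 4 arrays, with a summed intensity of 4003 and 2906 in P815 with and without imatinib, against 32622 and 42878 in BMMC with and without SCF. Of 3 miRNAs found in blood cells, miR-142-3p and miR-223 were not listed on either P815 array, and all 3 were listed on both BMMC arrays. Of 14 markers of lymphocytes, red cells, liver, muscle, neurons and embryonic stem cells, 4 were listed on each P815 array, 5 in BMMC with SCF and 7 in BMMC without SCF. The liver miRNA miR-122 and 1 of 3 muscle miRNAs, miR-206, were listed on all 4 arrays. The red cell miRNA miR-144 was listed in P815 without imatinib and in BMMC without SCF. The muscle miRNA miR-1 was listed in P815 without imatinib, and the neuron miRNA miR-124 in BMMC without SCF. Among embryonic stem cell miRNAs, miR-290 and miR-294 were listed in P815 with imatinib, and miR-290, miR-302a and miR-302b on both BMMC arrays. The rest (miR-133a, miR-150, miR-451, miR-9 and miR-295) were listed on 0. Their part in the miR-574 signal was not tested.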

How the data were processed

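Each deposited array file holds 1 linear intensity per probe, a mean of foreground medians per the file headers, with no background column or saturation flag. The array maker and scanner are not given in the labels or headers. In the table of processed intensities the authors deposited, values equalled the array intensity minus the array's median mismatch probe, times 1 factor on the treated array of each cell type (0.834 with SCF, 0.628 with imatinib), and were blank below 1.5 times that median. A probe with an entry is called listed. The factors put the 2 cell types on separate scales, so this table was used within a cell type only. The number of arrays, 1 per group, limits the precision and allows no test.

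Normexp background correction (offset 50, limma 3.58.1, R 4.3.3) was followed by log2 and quantile normalization over the 4 arrays on the 785 miRNA probes, with mismatch probes placed through each array's own intensity map. The script was tested on simulated data. A miRNA's probe was the mouse-named one, otherwise the human-named, otherwise the rat-named one with a mouse gene of that name in RefSeq (GRCm38.p6, used for names), giving 389 miRNAs, 379 of them with a gene. Markers miR-122 and miR-124 were read from probes named miR-122a and miR-124a. No cut other than 2-fold was used. miR-574 and the lists were chosen with earlier results of these data known. Named miRNAs are miR-574, the 8 nearest to it in pattern, and members of the family list 2-fold apart in a P815 comparison. Alternatives of scaling, background and detection are given in the closing section.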

Additional observations from a re-analysis of the deposited data

How the results depend on the processing

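The fall of miR-574 with imatinib and its excess in P815 without imatinib over BMMC with SCF kept their signs under all alternatives run (12 and 10). The excess of P815 with imatinib over BMMC without SCF kept its sign in 8 of 10, and the SCF difference in 9 of 12. Scaling to virus and worm probes or to the 4 glycine tRNA probes, and the ratio to the mismatch probe, were chosen after seeing the data. That ratio is counted among the alternatives above, with a sign change for KIT not active (-0.33) and for SCF (-0.19). Its denominator is near background (not listed on 3 of 4 arrays), so on its own no direction is drawn from it. A value is called moved where it changed by more than the spread (SD) of that comparison over virus and worm probes. For the gap between the KIT effects, the SDs of the imatinib and SCF comparisons were combined as the root of their summed squares. With KIT active, P815 minus BMMC was 2.06 and moved to 0.77 with median centring, 0.17 with no scaling, 0.70 with virus and worm probes, 0.85 with glycine tRNA and 0.77 as a ratio to the mismatch probe. With KIT not active it was 0.98 and moved to 0.40, -0.83, 0.35, 0.17 and -0.33 under the same 5. With imatinib it was -1.27 and moved to -0.61 with median centring, -0.63 with no scaling and -0.62 with virus and worm probes. With SCF it was 0.20 and moved to -0.36 with no scaling, -0.19 as a ratio to the mismatch probe and -0.63 in the authors' processed values. The gap between the KIT effects was 1.08 and moved to 0.35 with virus and worm probes and 1.95 in the authors' processed values. The cause was not tested.

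Counts of miRNAs 2-fold apart moved as follows. A count is called moved where the larger of the 2 counts exceeded 1.5 times the smaller, which is a fixed limit and not a measured spread. P815 against BMMC with KIT active gave 97, and 60 where listing on both arrays was asked. With KIT not active it gave 58, 172 with no scaling and 118 with the median mismatch probe subtracted. Imatinib gave 30, 66 with that subtraction and 16 with listing on both arrays. SCF gave 5, 8 with median centring, cyclic loess, offset 10, quantile normalization within cell types or virus and worm probes, 9 with glycine tRNA, 3 with no background correction, 16 with no scaling, 17 with the subtraction and 106 in the authors' values. Another species' probe for miR-574 was not on the array. No paired analysis was possible because each group has 1 array.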
